A study of Mus musculus with 9 samples.

Results

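The 10 MHC class I presentation genes described here were H2-K1, H2-D1, B2m, Tap1, Tap2, Tapbp, Psmb8, Psmb9, Psmb10 and Nlrc5. They were taken by gene symbol from the 24391 gene rows of a read count table, where each had 1 row, and all 10 passed the filter on low counts. The table held RNA-seq libraries of bone marrow cells of C57BL/6 mice aged 6 to 8 weeks that carried leukaemia of the AML1-ETO9a model, driven by a short form of the AML1-ETO fusion protein. Cells were sorted into 3 populations with 3 libraries each, named CD43++ckit+, CD43+ckit- and CD43-ckit- after 2 surface proteins. CD43 is a leukocyte sialoglycoprotein encoded by Spn, and c-Kit, encoded by Kit, is the stem cell factor receptor of progenitors. The 3 populations shared the strain, age, disease model and tissue, and no normal marrow was among the groups compared. The labels do not give which animal each library came from, so p-values reflect only how these samples vary, possibly for technical reasons. They name no reporter of AML1-ETO9a in the sort either, so cells without the fusion may be present.

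MHC class I molecules show peptides from inside the cell to CD8 T cells. Proteasomes cut proteins into peptides, the TAP transporter carries the peptides into the endoplasmic reticulum, and tapasin (Tapbp) bridges TAP and the heavy chain while a peptide is loaded. The heavy chains H2-K and H2-D pair with the invariant light chain beta2-microglobulin, and loss of class I from the surface hides a cell from T cells while it removes a signal that restrains NK cells. Interferons raise most of these genes, including the catalytic subunits of the immunoproteasome (Psmb8, Psmb9, Psmb10), which take the places of Psmb5, Psmb6 and Psmb7. NLRC5 is a transactivator that acts with the RFX, CREB and NF-Y factors at class I promoters, which also carry sites for NF-kappaB and interferon regulatory factors.

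The promoter stretches of the 3 genes that encode the class I molecule itself, and the stretch between Tap1 and Psmb9, are printed because these genes moved by different amounts or in different directions although they are known to share control elements. Sequences are those of RefSeq on GRCm38.p6, 5′ to 3′ on the strand of the gene, and end 1 base before the annotated transcription start. Capitals mark matches, on either strand, to a kappaB motif (10 bases that start with GGG and end with CC, with T as the sixth), an interferon regulatory factor motif (GAAA repeated after a gap of any 2 bases), a CCAAT box (CCAAT) or a cyclic AMP response element core (TGACGTCA). Overlapping matches run together. H2-K1 has 2 annotated starts in that table, and the window of the first is shown. The stretches are H2-K1 at chr17:34000348-34000597 on the minus strand, H2-D1 at chr17:35262844-35263093 on the plus strand and B2m at chr2:122147437-122147686 on the plus strand.
H2-K1: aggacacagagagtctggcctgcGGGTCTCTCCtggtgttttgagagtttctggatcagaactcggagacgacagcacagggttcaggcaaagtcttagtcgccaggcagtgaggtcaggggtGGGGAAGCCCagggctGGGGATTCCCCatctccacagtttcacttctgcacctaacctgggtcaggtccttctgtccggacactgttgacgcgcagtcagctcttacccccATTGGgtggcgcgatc
H2-D1: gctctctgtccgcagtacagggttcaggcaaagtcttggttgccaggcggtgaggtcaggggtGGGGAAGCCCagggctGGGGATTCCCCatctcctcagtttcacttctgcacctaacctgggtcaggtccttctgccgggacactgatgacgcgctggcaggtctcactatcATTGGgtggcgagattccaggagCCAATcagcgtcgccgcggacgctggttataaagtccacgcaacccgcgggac
B2m: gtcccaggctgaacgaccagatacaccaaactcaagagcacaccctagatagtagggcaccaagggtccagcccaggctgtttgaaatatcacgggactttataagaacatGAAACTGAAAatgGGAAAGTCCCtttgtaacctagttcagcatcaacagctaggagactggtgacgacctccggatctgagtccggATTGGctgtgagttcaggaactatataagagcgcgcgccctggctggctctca

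Of the 10 members, 8 had a promoter window in the RefSeq table. The kappaB motif was in the windows of 3 of them, H2-K1, H2-D1 and B2m, and in 15.9% of all 32851 promoter windows of the same length. The interferon regulatory factor motif was found for B2m alone among the 8, against 2.98% of all windows. A CCAAT box was in the windows of 6 of the 8, against 33.8% of all, and the cyclic AMP response element core in 0 of the 8, against 1.55%. The H2-K1 and H2-D1 windows shared an identical stretch of 47 bases, which begins 141 bases before the H2-K1 start and 201 bases before the H2-D1 start. These matches describe letters in a window and say nothing of binding. Exact matching also misses variants of a motif, so a missing match does not show that a site is absent.

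Tap1 and Psmb9 are neighbours transcribed in opposite directions, and 225 bases lie between their annotated starts. Psmb8 and Tap2 follow Tap1 on the same chromosome, with no other protein-coding gene between. The stretch is shown on the plus strand, the strand of Tap1, at chr17:34187331-34187555, with the only motif match, a CCAAT box, in capitals 222 bases before the Tap1 start and 8 bases before the Psmb9 start.
Psmb9 to Tap1: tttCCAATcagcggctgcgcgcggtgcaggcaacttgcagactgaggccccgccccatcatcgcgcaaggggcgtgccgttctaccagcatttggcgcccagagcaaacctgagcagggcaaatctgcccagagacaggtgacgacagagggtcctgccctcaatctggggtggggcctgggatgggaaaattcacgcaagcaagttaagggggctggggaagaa

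Total counts per library ranged from 17966197 to 31781746. Levels are CPM, the usual depth-scaled read count, with library totals adjusted by TMM, a method that sets the bulk of genes equal between libraries, with factors from 0.589 to 1.41. Differences are log2 fold changes, first-named population minus second, with a standard error (SE) and an adjusted p from edgeR's quasi-likelihood test over 12573 genes, and a gene was called at an adjusted p under 0.05. The 3 pairwise comparisons share libraries with each other. In sorted bulk samples such as these, fewer cells of a type and less RNA per cell cannot be told apart. The libraries that correlated least with the rest of their population were CD43++ckit+ replicate 3, CD43+ckit- replicate 1 and CD43-ckit- replicate 1, which also had the most neutrophil marker counts of CD43++ckit+ and the fewest of the other two. Scaling matters for every direction below: with library totals in place of TMM, the median of all genes shifted by 0.26 on the log2 scale for CD43++ckit+ versus CD43+ckit-, by 0.91 for CD43++ckit+ versus CD43-ckit- and by 0.64 for CD43+ckit- versus CD43-ckit-. With DESeq2 size factors it shifted by -0.24 in the second of these comparisons and by -0.20 in the third. Of all called genes, 49.4%, 58.9% and 59.7% were higher in the 3 comparisons, against 67%, 82.2% and 85.2% with library totals, and 45.8% in the last with DESeq2 size factors. Kit averaged 164.2 ± 15.9 CPM in CD43++ckit+ cells, 15.8 ± 7.01 CPM in CD43+ckit- cells and 34.1 ± 13.2 CPM in CD43-ckit- cells, and Spn averaged 502.4 ± 63.7, 194.2 ± 50.3 and 142.3 ± 61.2 CPM in the same order (SD, n = 3 each). Both were higher in CD43++ckit+ than in either other population by edgeR (adjusted p from 0.000569 to 0.0109). Kit was lower in CD43+ckit- cells than in CD43-ckit- cells (log2 fold change -1.11, adjusted p = 0.0379), although both carry the ckit- label. That call was lost under 8 of 19 alternatives, among them library totals (-0.50, adjusted p = 0.33). Spn was not called between CD43+ckit- cells and CD43-ckit- (log2 fold change 0.45, adjusted p = 0.269).

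The heavy chains, the light chain and tapasin had their lowest means in CD43++ckit+, although with library totals B2m and Tapbp were not lower there than in CD43-ckit-, and the 3 immunoproteasome subunits had their highest means there. H2-D1 showed the largest difference of the 10, an 8.31-fold lower level in CD43++ckit+ cells than in CD43-ckit- cells. Tap1 and Nlrc5 had their highest mean in CD43+ckit- cells. For CD43++ckit+ versus CD43+ckit-, 7 of the 10 members were called (2 higher, 5 lower; with library totals 2 higher, 3 lower, and with DESeq2 size factors 1 higher, 7 lower), where 39.8% of all genes were called. For CD43++ckit+ versus CD43-ckit-, 6 were called (2 higher, 4 lower; with library totals 6 higher, 2 lower), where 67.4% of all genes were called. For CD43+ckit- versus CD43-ckit-, 3 were called (1 higher, 2 lower; with library totals 7 higher, 1 lower), where 51.9% of all genes were called (31% higher, 20.9% lower). In a joint test of the 3 populations 8 were called, against 74.8% of all genes, with Tap1 and Tap2 the exceptions (adjusted p = 0.0514 and 0.0672), both of which library totals (0.00433 and 0.00185) and the DESeq2 test (0.0423 and 1.93e-05) called. These shares do not set the members apart from the background of all genes. The members' median log2 fold changes were -0.43, -0.13 and -0.07 in the 3 comparisons, against 0.01, 0.19 and 0.13 over all tested genes.

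**Figure D1:**
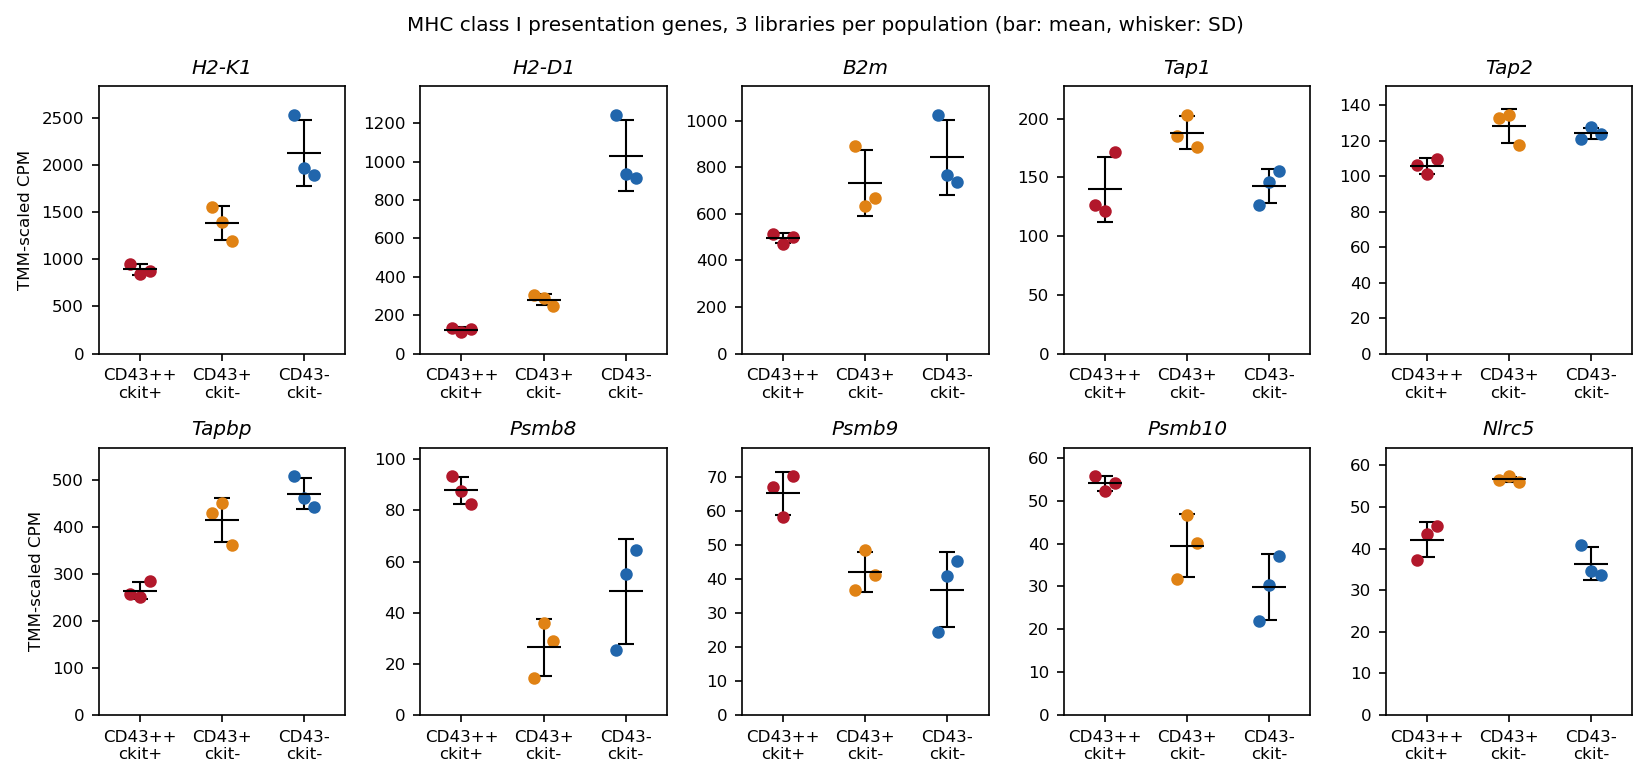
TMM-scaled CPM (vertical axis, from 0) of the 10 genes in each of the 9 libraries, by sorted population. Points are libraries, the bar is the mean and the whisker the SD of 3 libraries; H2-D1 climbs from left to right with no overlap between populations, while Psmb8, Psmb9 and Psmb10 are highest in CD43++ckit+.

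H2-K1 encodes the H2-K heavy chain, which binds peptide and is seen by the T cell receptor. Its levels were 953, 848 and 876 CPM in the CD43++ckit+ libraries, 1553, 1398 and 1192 CPM in CD43+ckit- cells and 2535, 1973 and 1890 CPM in CD43-ckit- cells. The populations did not overlap in any pair, which was so for 55.5%, 73.2% and 64.3% of all genes in the 3 comparisons. H2-K1 was lower in CD43++ckit+ cells than in CD43+ckit- cells (log2 fold change -0.63 ± 0.16 SE, adjusted p = 0.0128) and than in CD43-ckit- cells (-1.26 ± 0.16, adjusted p = 0.000171). Its level in CD43+ckit- was lower than in CD43-ckit- as well (-0.63 ± 0.16, adjusted p = 0.0106). With library totals the first 2 differences stayed called (-0.36 and -0.32), but the last became 0.03. The call against CD43+ckit- was lost without CD43++ckit+ replicate 2 (adjusted p = 0.0613) or CD43+ckit- replicate 1 (0.0556), and the call between CD43+ckit- cells and CD43-ckit- without CD43+ckit- replicate 3 (0.0528).

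H2-D1 encodes the H2-D heavy chain, the second classical class I molecule of the C57BL/6 strain. It had 134, 111 and 128 CPM in CD43++ckit+ cells, 306, 288 and 249.6 CPM in CD43+ckit- cells, and 1246, 935 and 916 CPM in CD43-ckit- cells. Every pair of populations was separate. H2-D1 was 2.26-fold lower in CD43++ckit+ cells than in CD43+ckit- cells (log2 fold change -1.18 ± 0.16 SE, adjusted p = 0.000803) and 8.31-fold lower than in CD43-ckit- cells (-3.05 ± 0.17, adjusted p = 2.11e-06). It was 3.67-fold lower in CD43+ckit- cells than in CD43-ckit- cells (-1.88 ± 0.16, adjusted p = 6.63e-05). These 3 calls and directions were kept under each of the 19 alternatives computed, library totals included (-0.91, -2.12 and -1.21).

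The relation between the 2 heavy chains differed among the populations, and a ratio within a library does not depend on scaling. The log2 ratio of H2-D1 to H2-K1 counts was -2.83, -2.93 and -2.77 in CD43++ckit+ cells, -2.34, -2.28 and -2.26 in CD43+ckit- cells and -1.02, -1.08 and -1.05 in CD43-ckit- cells. The ratio was thus lowest in CD43++ckit+ cells, and its spread within a population was small (SD 0.08, 0.05 and 0.03). H2-D1 relative to H2-K1 was 3.48-fold lower in CD43++ckit+ cells than in CD43-ckit- cells and 2.37-fold lower in CD43+ckit- cells than in CD43-ckit- cells. An exact permutation test over all 1680 assignments of the libraries to 3 populations gave p = 0.00357, the smallest it can give, and 0.0107 after adjustment over the 6 gene pairs tested. This pair was added after seeing the data, and the adjustment does not cover that choice. Of the 50-base words of their transcripts, 90.4% for H2-K1 and 87.2% for H2-D1 occur in no other annotated gene, so some reads of these similar genes could have been assigned to either or left out.

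B2m encodes beta2-microglobulin, the light chain of every classical class I molecule. It had 515, 473 and 499 CPM in CD43++ckit+ cells, 894, 636 and 669 CPM in CD43+ckit- cells and 1027, 767 and 736 CPM in CD43-ckit- cells. CD43++ckit+ lay below both others without overlap, whereas the other two overlapped each other. B2m was lower in CD43++ckit+ cells than in CD43-ckit- cells (log2 fold change -0.77 ± 0.18 SE, adjusted p = 0.00441), but with library totals the sign turned (0.17, adjusted p = 0.258). It was also lower than in CD43+ckit- cells (-0.56 ± 0.18, adjusted p = 0.0324), a call lost without any 1 of the CD43++ckit+ libraries, or without replicate 1 or 3 of CD43+ckit- (adjusted p of 0.0523 to 0.125), and with library totals (0.102). For CD43+ckit- against CD43-ckit- it was not called (-0.20, adjusted p = 0.351), but it was called lower in the DESeq2 test (-0.40, 0.0372) and higher with library totals (0.46, 0.012). The log2 ratio of H2-K1 to B2m averaged 0.85 ± 0.04 in CD43++ckit+ cells, 0.92 ± 0.19 in CD43+ckit- cells and 1.34 ± 0.03 in CD43-ckit- cells (SD, n = 3 each; exact permutation p = 0.0321, adjusted 0.0357). The exact permutation p was 0.0679 without any 1 of the CD43-ckit- libraries and 0.0833 when labels were permuted within replicate numbers, so neither passed. This pair too was added after seeing the data, which the adjustment does not cover. In all 3 CD43-ckit- libraries the ratio was above the other 6 libraries.

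Tapbp encodes tapasin, which holds the heavy chain at the TAP transporter. Its levels were 258, 250.4 and 286 CPM in CD43++ckit+ cells, 430.3, 452 and 362 CPM in CD43+ckit- cells and 509, 462 and 444 CPM in CD43-ckit- cells. The CD43++ckit+ libraries were below all others. Tapbp was 1.57-fold lower in CD43++ckit+ cells than in CD43+ckit- cells (log2 fold change -0.65 ± 0.13 SE, adjusted p = 0.00406) and 1.78-fold lower than in CD43-ckit- cells (-0.83 ± 0.13, adjusted p = 0.000448). The first call was kept under each of the 19 alternatives, while with library totals the second became 0.09 (adjusted p = 0.514). CD43+ckit- and CD43-ckit- overlapped and were not called (-0.19, adjusted p = 0.238). Tapbp was called lower there with DESeq2 size factors (-0.38, adjusted p = 0.0345) and in the DESeq2 test (0.0056), and called higher with library totals (0.47, 0.00977).

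Tap1 and Tap2 encode the subunits of the peptide transporter, and neither was called between any pair of populations. Tap1 had 127, 121 and 171 CPM in CD43++ckit+ cells, 185, 203 and 175 CPM in CD43+ckit- cells and 127, 146 and 155 CPM in CD43-ckit- cells. CD43+ckit- was above both others in every library, while CD43++ckit+ and CD43-ckit- overlapped. The log2 fold change of Tap1 was -0.43 ± 0.16 SE for CD43++ckit+ versus CD43+ckit- (adjusted p = 0.0566), -0.03 ± 0.16 for CD43++ckit+ versus CD43-ckit- (0.864) and 0.40 ± 0.16 for CD43+ckit- against CD43-ckit- (0.0594). The first of these was called without CD43++ckit+ replicate 3 (-0.60, adjusted p = 0.00948) or CD43-ckit- replicate 1 (0.0393), and in the DESeq2 test (0.0221), the third without CD43++ckit+ replicate 3 (0.0218) or with library totals (1.03, 0.00278), and with library totals the second became 0.88 and was called (0.00472). Tap2 was between 101 and 109 CPM in CD43++ckit+ cells, between 117 and 135 CPM in CD43+ckit- cells and between 121 and 127 CPM in CD43-ckit- cells. CD43++ckit+ was lowest in every library, but the difference was not called against CD43+ckit- cells (-0.28 ± 0.10, adjusted p = 0.0572) or CD43-ckit- (-0.23 ± 0.10, adjusted p = 0.0717), while with DESeq2 size factors both were called lower (-0.32, adjusted p = 0.0348, and -0.47, 0.00365), as in the DESeq2 test (0.00316 and 5.76e-06). With library totals the second turned to 0.68 and was called higher (0.00134). For CD43+ckit- against CD43-ckit- Tap2 was not called (0.05 ± 0.10, adjusted p = 0.703). DESeq2 size factors turned its sign (-0.15), and library totals gave 0.69, called at an adjusted p of 0.00185.

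**Figure D2:**
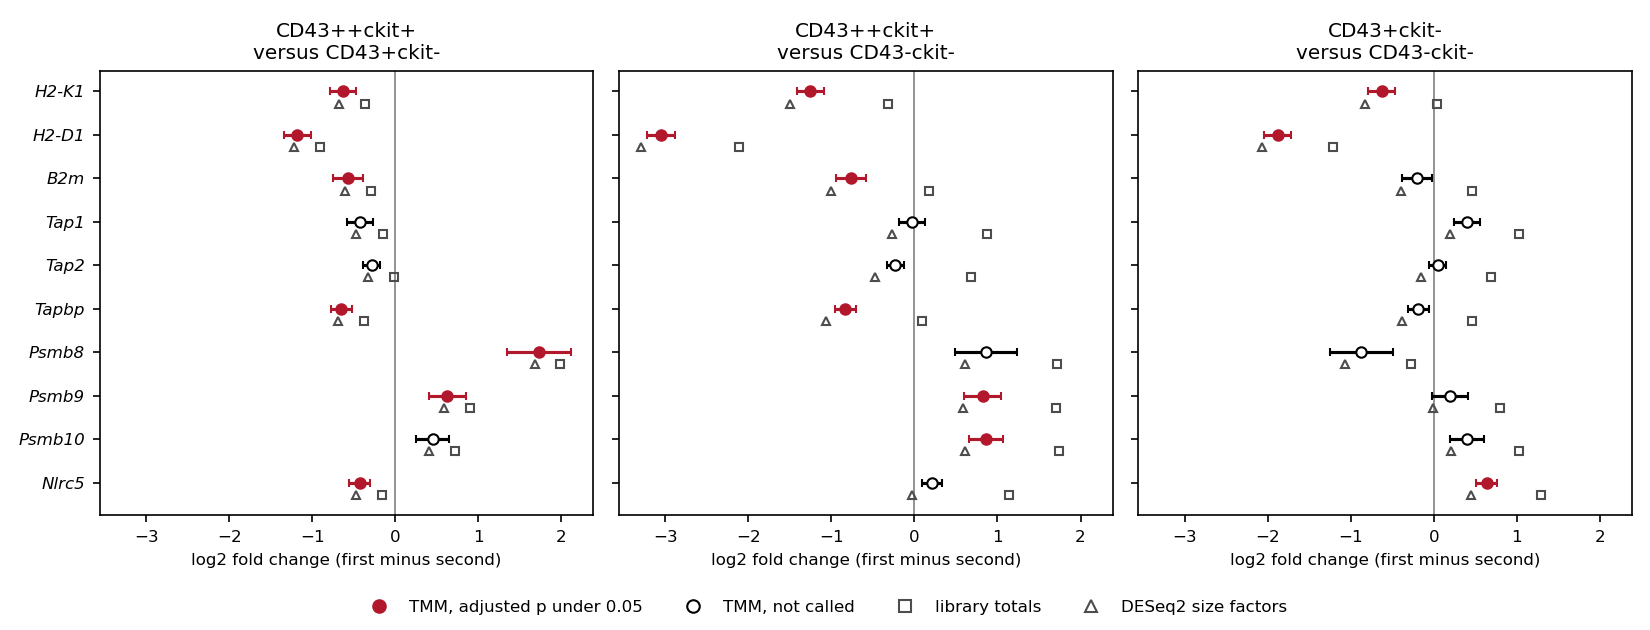
Log2 fold change of each gene in the 3 comparisons (horizontal axis, first-named minus second-named population); circles are TMM values with SE bars, filled where the adjusted p was under 0.05, and the small squares and triangles give the values with library totals and with DESeq2 size factors. H2-D1 stays left of 0 and Psmb8 stays right of 0 in both CD43++ckit+ comparisons under all 3 scalings, whereas B2m and Tapbp cross 0 with library totals against CD43-ckit-.

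Psmb8 encodes the immunoproteasome subunit that replaces Psmb5 at the chymotrypsin-like site. It had 93.4, 87.5 and 82.6 CPM in CD43++ckit+ cells, 14.4, 36.1 and 28.9 CPM in CD43+ckit- cells and 25.4, 55.2 and 64.4 CPM in CD43-ckit- cells. The CD43++ckit+ libraries were above the other 6, and replicate 1 was lowest in each of the other populations. Psmb8 was 3.32-fold higher in CD43++ckit+ cells than in CD43+ckit- cells (log2 fold change 1.73 ± 0.39 SE, adjusted p = 0.00692), a call kept under each of the 19 alternatives. Against CD43-ckit- the difference was not called (0.86 ± 0.38, adjusted p = 0.0682), but it was called without CD43+ckit- replicate 1 (0.0271) or CD43-ckit- replicate 3 (0.0481), and with library totals (1.72, adjusted p = 0.00652). For CD43+ckit- against CD43-ckit- it was not called either (-0.87 ± 0.38, adjusted p = 0.0799). Same-numbered libraries of these 2 populations shared deviations, but replicates 2 and 3 did so across numbers as well (correlations 0.343 and 0.349). The numbers thus set replicate 1 apart but do not show pairing of replicates 2 and 3. With the replicate number as a block over all 9 libraries this Psmb8 difference was called (-0.87, adjusted p = 0.0431). A block in a fit of these 2 populations alone, added after seeing the data, gave -0.92 (adjusted p = 4.56e-07). That fit leaves few libraries to estimate the spread, and its block uses these same numbers. Its small p therefore carries little weight. The DESeq2 test also called this Psmb8 difference (-1.07, adjusted p = 0.017), as did edgeR without CD43-ckit- replicate 1 (-1.17, adjusted p = 0.0214). Replicate 1 also had the lowest summed neutrophil markers of its population in CD43+ckit- cells (487 CPM) and in CD43-ckit- cells (3840 CPM). With the neutrophil marker mean as a covariate the log2 fold changes of Psmb8 were 2.07, 1.54 and -0.54, the first 2 called (adjusted p = 0.000834 and 0.0155).

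Psmb9 replaces Psmb6 at the caspase-like site. It had 66.9, 58.2 and 70.1 CPM in CD43++ckit+ cells, 36.8, 48.4 and 41.1 CPM in CD43+ckit- cells and 24.3, 40.7 and 45.2 CPM in CD43-ckit- cells. CD43++ckit+ was above all other libraries, and the other two populations overlapped. Psmb9 was 1.77-fold higher in CD43++ckit+ cells than in CD43-ckit- cells (log2 fold change 0.82 ± 0.22 SE, adjusted p = 0.00907), with an adjusted p of 0.0517 under DESeq2 size factors. The difference from CD43+ckit- (0.63 ± 0.22, adjusted p = 0.0477) lost its call without any 1 of the CD43++ckit+ or CD43+ckit- libraries, or without CD43-ckit- replicate 2 (adjusted p from 0.06 to 0.135), and with DESeq2 size factors (0.0746). For CD43+ckit- against CD43-ckit- it was not called (0.20 ± 0.22, adjusted p = 0.463), with a value of -0.02 without CD43-ckit- replicate 1 and a call with library totals (0.80, 0.0393).

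Psmb10 replaces Psmb7 at the trypsin-like site. It had between 52.3 and 55.7 CPM in CD43++ckit+ cells, between 31.8 and 46.6 CPM in CD43+ckit- cells and between 21.9 and 37.2 CPM in CD43-ckit- cells. As with the other immunoproteasome subunits, the 3 CD43++ckit+ libraries were highest. Psmb10 was 1.81-fold higher in CD43++ckit+ cells than in CD43-ckit- cells (log2 fold change 0.86 ± 0.21 SE, adjusted p = 0.00502), a call kept under each of the 19 alternatives. The difference from CD43+ckit- was not called (0.45 ± 0.20, adjusted p = 0.109), though it was without CD43-ckit- replicate 1 (0.0434). That between CD43+ckit- cells and CD43-ckit- was not called (0.40 ± 0.20, adjusted p = 0.12), though it was without CD43-ckit- replicate 3 (0.60, adjusted p = 0.0421) and with library totals (1.02, 0.00967).

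The constitutive subunits that these 3 replace were nearly level. Psmb5 averaged 32.3 ± 1.19 CPM in CD43++ckit+ cells, 31.6 ± 7.42 CPM in CD43+ckit- cells and 30.4 ± 2.25 CPM in CD43-ckit- cells (SD, n = 3 each). Psmb6 averaged 109.7 ± 3.13, 131 ± 7.01 and 115.6 ± 7.36 CPM, and Psmb7 averaged 126.5 ± 8.67, 143.5 ± 9.45 and 159.5 ± 5.07 CPM in the same order. By edgeR 1 of their 9 pairwise differences was called, Psmb7 between CD43++ckit+ cells and CD43-ckit- (log2 fold change -0.33, adjusted p = 0.0207), which was lost without CD43++ckit+ replicate 2 (0.104) or 3 (0.0732) and turned to 0.58 with library totals.

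Set against the subunit it replaces, each immunoproteasome subunit was highest in CD43++ckit+ cells. The log2 ratio of Psmb8 to Psmb5 was 1.47, 1.47 and 1.38 in CD43++ckit+ cells, -0.87, -0.15 and 0.02 in CD43+ckit- cells and -0.14, 0.84 and 0.98 in CD43-ckit- cells (exact permutation p = 0.00714, adjusted 0.0143). Psmb9 to Psmb6 averaged -0.76 ± 0.10 in CD43++ckit+ cells, -1.64 ± 0.15 in CD43+ckit- cells and -1.70 ± 0.41 in CD43-ckit- cells (SD, n = 3 each; exact permutation p = 0.0357, adjusted 0.0357), which did not pass when labels were permuted within replicate numbers (exact p = 0.111). Psmb10 to Psmb7 averaged -1.23 ± 0.07, -1.87 ± 0.19 and -2.45 ± 0.40 in the same order (exact permutation p = 0.00357, adjusted 0.0107). In all 3 ratios the CD43++ckit+ libraries did not overlap with those of either other population. The ratios were 3.43-fold, 1.85-fold and 1.57-fold higher in CD43++ckit+ cells than in CD43+ckit- cells, and 1.84-fold, 1.92-fold and 2.33-fold higher than in CD43-ckit- cells. An exact permutation test of 1 pair of populations, with 3 libraries each, cannot go below p = 0.1, so the tests compare all 3 populations at once. Of the 50-base words of Psmb5 transcripts only 45.9% occur in no other gene, which makes its counts the least certain of these.

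**Figure D3:**
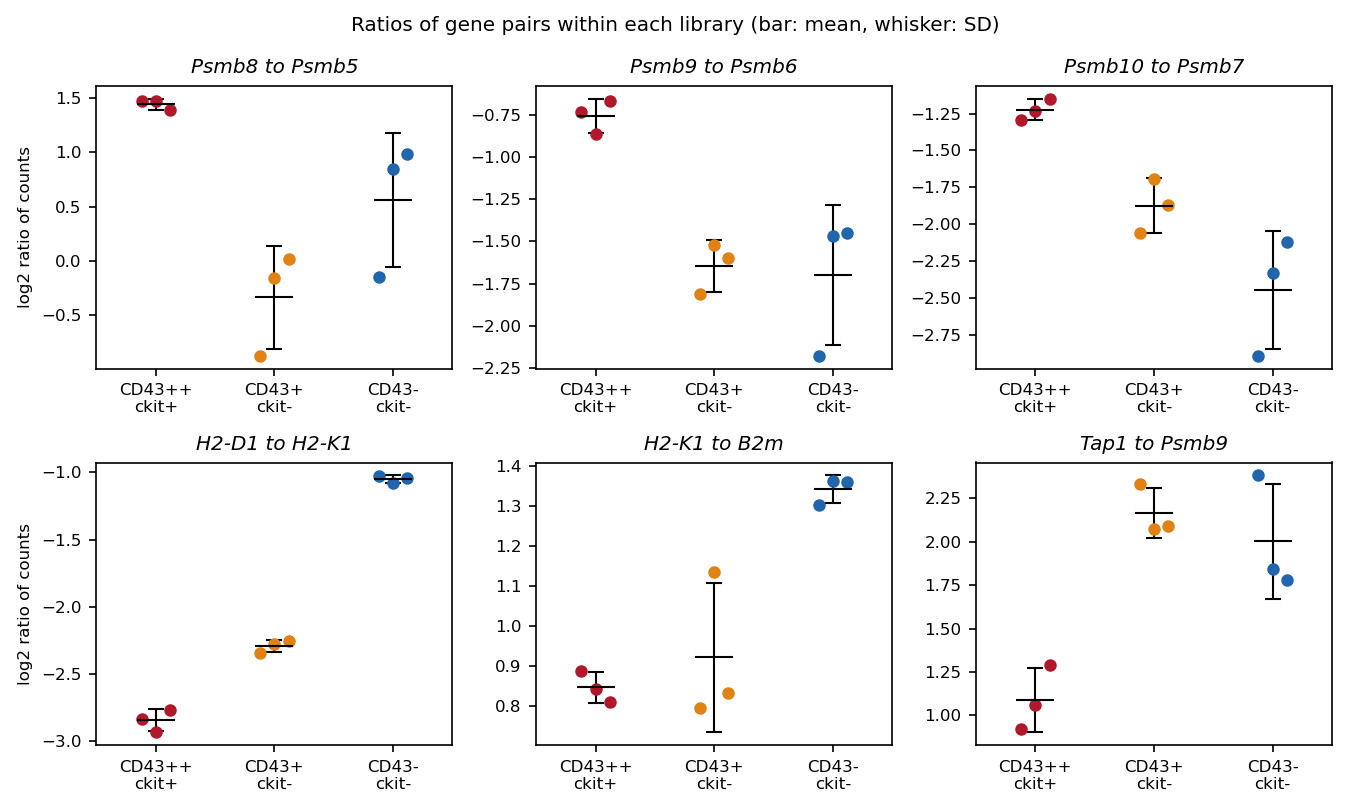
Log2 ratio of the counts of 2 genes within each library (vertical axis), by population, for the 6 pairs tested; points are libraries, the bar is the mean and the whisker the SD. Each immunoproteasome subunit is highest relative to the subunit it replaces in CD43++ckit+, and H2-D1 relative to H2-K1 is lowest there.

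Tap1 and Psmb9, which share the 225 bases shown above between their starts, did not move together between CD43++ckit+ and either other population. In CD43++ckit+ the mean of Psmb9 was higher and that of Tap1 lower than in CD43+ckit-. By edgeR this Tap1 difference was not called (adjusted p = 0.0566), and the Psmb9 call was lost under 9 of 19 alternatives. The log2 ratio of Tap1 to Psmb9 was 0.92, 1.06 and 1.29 in CD43++ckit+ cells, 2.33, 2.07 and 2.09 in CD43+ckit- cells and 2.38, 1.84 and 1.78 in CD43-ckit- cells. CD43++ckit+ was below all other libraries, and the exact permutation test gave p = 0.0214, or 0.0321 after adjustment, but 0.0556 when labels were permuted within replicate numbers. The choice of this pair was also made after seeing the data, which the adjustment does not cover. Tap1 relative to Psmb9 was 2.11-fold lower in CD43++ckit+ cells than in CD43+ckit- cells and 1.88-fold lower than in CD43-ckit- cells. Between CD43+ckit- and CD43-ckit- this log2 ratio differed by 0.16, and the libraries overlapped.

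Nlrc5, the class I transactivator, had 37.3, 43.5 and 45.4 CPM in CD43++ckit+ cells, 56.4, 57.4 and 56.1 CPM in CD43+ckit- cells and 40.9, 34.6 and 33.7 CPM in CD43-ckit- cells. CD43+ckit- was above all other libraries and had the smallest spread, while the other two populations overlapped. Nlrc5 was 1.56-fold higher in CD43+ckit- cells than in CD43-ckit- cells (log2 fold change 0.64 ± 0.13 SE, adjusted p = 0.0031), a call kept under each of the 19 alternatives. It was lower in CD43++ckit+ cells than in CD43+ckit- cells (-0.43 ± 0.12, adjusted p = 0.0231), a call lost without replicate 1 or 2 of CD43++ckit+ or without any 1 of the CD43+ckit- libraries (adjusted p of 0.0589 to 0.106) and with library totals (-0.16, 0.381). CD43++ckit+ and CD43-ckit- were not called (0.21, adjusted p = 0.157), but were without CD43-ckit- replicate 1 (0.31, 0.0388). DESeq2 size factors gave -0.03 there, and library totals 1.14 (called, 5.92e-05). With TMM, Nlrc5 thus had its highest mean in CD43+ckit- cells, whereas H2-K1 and H2-D1 had theirs in CD43-ckit- cells. With library totals, edgeR gave 0.03 for H2-K1 in CD43+ckit- versus CD43-ckit- (adjusted p = 0.783), so that contrast then held for H2-D1 only.

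A test of the difference between the 2 steps, from CD43-ckit- to CD43+ckit- and from there to CD43++ckit+, asks whether the 2 steps are unequal, not whether the direction turns. Of the members 3 were called (1 higher, 2 lower; with library totals 0 higher, 5 lower), against 28.4% of all genes. The difference was -1.07 ± 0.21 for Nlrc5 (adjusted p = 0.0074), 2.60 ± 0.69 for Psmb8 (0.0231) and -0.82 ± 0.27 for Tap1 (0.0471). Nlrc5 kept its call without each library in turn. The call of Psmb8 was lost without CD43+ckit- replicate 1 or 3 or CD43-ckit- replicate 2 (adjusted p from 0.051 to 0.0663) and with library totals (2.26, 0.055). That of Tap1 was lost without CD43++ckit+ replicate 1 or 2, any 1 of the CD43+ckit- libraries or CD43-ckit- replicate 2 (0.0818 to 0.256), and with DESeq2 size factors (0.11), the strict filter (0.113) or the DESeq2 test (0.0805). H2-K1 was not called in this test, with log2 fold changes of -0.63 for both steps under TMM, but -0.36 for CD43++ckit+ versus CD43+ckit- and 0.03 for the other step with library totals.

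Levels of different genes are compared per kilobase of exon. On that scale B2m and H2-K1 were the most abundant members in every population, at 576 and 539 CPM per kb in CD43++ckit+ cells, 853 and 834 CPM per kb in CD43+ckit- cells, and 981 and 1289 CPM per kb in CD43-ckit- cells. H2-D1 had 59.1 ± 5.61 CPM per kb in CD43++ckit+ cells, 134 ± 13.7 CPM per kb in CD43+ckit- cells and 491 ± 88.2 CPM per kb in CD43-ckit- cells (SD, n = 3 each). In CD43++ckit+ it was thus near Psmb8, at 54 ± 3.31 CPM per kb, and in CD43-ckit- it was above every member but B2m and H2-K1. Nlrc5 was lowest throughout, at 5.18, 6.97 and 4.48 CPM per kb in the 3 populations.

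Genes with the most similar pattern were sought among those whose log2 CPM averaged 3 or more, by the root mean square difference of centred log2 CPM over the 9 libraries. Nearest to H2-K1 were Ranbp3 (0.07), Ino80b (0.07), Ndfip1 (0.08) and Psmd4 (0.08), nearest to Tap1 were H2afv (0.06), Lamtor1 (0.08), Wsb2 (0.10) and Frat1 (0.11), and nearest to Psmb8 were Tagln2 (0.15), Nme2 (0.18), Phgdh (0.19) and H2afy (0.20). None of these 12 was in the pathway lists used here. Among the members themselves the closest pair was Psmb9 and Psmb10 (0.125), followed by B2m and Tapbp (0.168), and the farthest was H2-D1 and Psmb8 (1.803).

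The other class I and class I-like heavy chains, which present to T or NK cells or have other roles, were more often called lower than higher in CD43++ckit+. Of 28 listed genes 9 had no count in any library and 12 were tested. For CD43++ckit+ versus CD43+ckit-, 1 was higher and 5 lower, and for CD43++ckit+ versus CD43-ckit- 1 was higher and 7 lower (2 and 3 with library totals), with median log2 fold changes of -1.21 and -1.48. Lower calls covered 20.1% and 27.7% of all genes in these comparisons. H2-T23, which encodes Qa-1, a ligand of the NK receptor pair CD94/NKG2A, averaged 202.6 ± 8.66 CPM in CD43++ckit+ cells, 458.9 ± 52.8 CPM in CD43+ckit- cells and 859.6 ± 188 CPM in CD43-ckit- cells (SD, n = 3 each). Its log2 fold changes were -1.18 against CD43+ckit- cells (adjusted p = 0.00097) and -2.08 against CD43-ckit- cells (1.67e-05). H2-K2, a neighbour and near relative of H2-K1, averaged 15.5 ± 2.26, 54.4 ± 22.7 and 184.2 ± 59.5 CPM in the same order (-1.81, adjusted p = 0.00226, and -3.57, 3.37e-05). In RefSeq the protein-coding genes on either side of H2-K1 are Vps52 and Ring1. H2-K2 RNA is therefore not read here as that of a working heavy chain. H2-T24 was lower in CD43++ckit+ cells than in CD43+ckit- cells (-1.52, adjusted p = 0.00096) and CD43-ckit- (-1.35, 0.000559), and H2-T10 was lower than in CD43+ckit- cells (-1.26, 0.00173). H2-T10 has only 49.6% of its 50-base words in no other gene, so its counts are uncertain.

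Among 14 loading chaperones and trimming peptidases the calls went both ways. For CD43++ckit+ versus CD43-ckit- 7 were higher and 4 lower (10 and 1 with library totals), and for CD43++ckit+ versus CD43+ckit- 6 were higher and 1 lower (11 and 0 with library totals), with medians of 0.66 and 0.36. Higher calls covered 39.7% and 19.7% of all genes. Calr encodes calreticulin, the chaperone that holds the heavy chain in the loading complex. It averaged 750.8 ± 160 CPM in CD43++ckit+ cells, 631.7 ± 50.3 CPM in CD43+ckit- cells and 2765 ± 334 CPM in CD43-ckit- cells (SD, n = 3 each), and was lower in CD43++ckit+ cells than in CD43-ckit- cells (log2 fold change -1.88, adjusted p = 4.18e-05). Canx encodes calnexin, which binds newly made heavy chains, and went the other way, with 480.4 ± 97.8, 253.3 ± 45.6 and 178.1 ± 14.8 CPM in the same order. It was higher in CD43++ckit+ cells than in CD43+ckit- cells (0.92, adjusted p = 0.00468) and CD43-ckit- (1.43, 0.000206). The cytosolic aminopeptidase Lap3 was higher as well (1.68, adjusted p = 0.00278, and 2.18, 0.000303), and Blmh, bleomycin hydrolase, was higher than in CD43-ckit- cells (1.06, adjusted p = 8.52e-05).

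Other proteasome genes were called in both directions. For CD43++ckit+ versus CD43-ckit-, 39.7% of all genes were called higher and 27.7% lower. Against CD43+ckit- these shares were 19.7% and 20.1%. Of 11 other core subunits, 3 were higher and 2 lower in CD43++ckit+ cells than in CD43-ckit- cells (11 and 0 with library totals), and 1 was higher than in CD43+ckit- cells (6 with library totals), with medians of 0.05 and 0.15. Psma4, an alpha ring subunit, was higher in CD43++ckit+ cells than in CD43+ckit- cells (log2 fold change 0.71, adjusted p = 0.00536) and CD43-ckit- (0.91, 0.00066). Of 6 activators and assembly factors, 1 was higher and 3 lower in CD43++ckit+ cells than in CD43-ckit- cells (4 and 2 with library totals), and 2 were lower than in CD43+ckit- cells (2 higher and 2 lower with library totals), with medians of -0.29 and -0.25. Psme3, the nuclear PA28gamma activator, was lower in CD43++ckit+ cells than in CD43-ckit- cells (-2.63, adjusted p = 5.67e-06). Psmf1, the PI31 regulator, was lower than in CD43+ckit- cells (-1.55, adjusted p = 0.00113) and CD43-ckit- (-1.52, 0.000414). Pomp, the maturation factor of the core particle, was higher than in CD43-ckit- cells (0.57, adjusted p = 0.00156). Psme2, a subunit of the interferon-inducible PA28 activator, was lower than in CD43-ckit- cells (-0.43, adjusted p = 0.00762), but 0.49 with library totals.

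Interferon receptors, STATs and IRFs, which carry the signals that raise class I genes, were also more often called lower than higher in CD43++ckit+. Of 18 tested, 2 were higher and 9 lower than in CD43+ckit- cells, and 2 were higher and 12 lower than in CD43-ckit- cells (4 and 9 with library totals). The medians were -0.92 and -1.69. Over all genes, 20.1% and 27.7% were called lower and 19.7% and 39.7% higher in these comparisons. Ifngr2, a chain of the interferon gamma receptor, averaged 25.7 ± 2.17 CPM in CD43++ckit+ cells, 56.1 ± 10.1 CPM in CD43+ckit- cells and 225 ± 36.9 CPM in CD43-ckit- cells (SD, n = 3 each). Its log2 fold changes were -1.12 against CD43+ckit- cells (adjusted p = 0.00122) and -3.13 against CD43-ckit- cells (2.39e-06). The type I interferon receptor chains Ifnar1 and Ifnar2 were lower than in CD43+ckit- cells (-1.04, adjusted p = 0.00168, and -0.92, 0.00197) and than in CD43-ckit- cells (-2.01, 2.06e-05, and -1.71, 2.97e-05). Irf9, the DNA-binding part of the ISGF3 complex, was lower too (-1.24, adjusted p = 0.00117, and -2.16, 2.34e-05).

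Interferon-stimulated genes outside the class I pathway included larger differences than any member. Of 21 tested, 14 were lower in CD43++ckit+ cells than in CD43+ckit- cells and 19 than in CD43-ckit- cells, with medians of -1.34 and -2.26 (12 and 14 lower with library totals). None was called higher in these 2 comparisons by edgeR or DESeq2, with 0 at an unadjusted p under 0.05 by either. Of all genes, edgeR called 20.1% and 27.7% lower and 19.7% and 39.7% higher there. Isg15, a ubiquitin-like modifier, averaged 25.2 ± 13.7 CPM in CD43++ckit+ cells, 292.8 ± 39.3 CPM in CD43+ckit- cells and 3101 ± 709 CPM in CD43-ckit- cells (SD, n = 3 each). Its log2 fold changes were -3.54 against CD43+ckit- cells (adjusted p = 0.00039) and -6.94 against CD43-ckit- cells (3.47e-06). Ifit1, which binds foreign RNA, averaged 8.02 ± 5.05, 110.7 ± 15.3 and 635.3 ± 236 CPM in the same order (-3.78, adjusted p = 0.00049, and -6.30, 1.31e-05). Oasl2 and Ifi27l2a were lower in CD43++ckit+ cells than in CD43-ckit- by similar amounts (-6.20, adjusted p = 5.15e-05, and -5.26, 5.41e-06). For CD43+ckit- against CD43-ckit- 11 of the 21 were lower (10 with the replicate block over all 9 libraries, 16 lower and 1 higher with the block in a fit of these 2 populations alone, and 5 lower and 2 higher with library totals), where 20.9% of all genes were called lower. Where Psmb8, Psmb9 and Psmb10, themselves interferon-inducible, were called for CD43++ckit+ they were higher.

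The factors known at class I promoters were mixed. Of 13 enhanceosome and NF-kappaB genes, 2 were higher and 4 lower in CD43++ckit+ cells than in CD43+ckit- cells (3 and 4 with library totals), and 2 were higher and 7 lower than in CD43-ckit- cells (7 and 3 with library totals), with medians of -0.28 and -0.63. In these comparisons 20.1% and 27.7% of all genes were called lower and 19.7% and 39.7% higher. Relb and Nfkb2, which form the non-canonical NF-kappaB dimer, were lower in CD43++ckit+ cells than in CD43+ckit- cells (log2 fold change -1.70, adjusted p = 0.00055, and -1.37, 0.000617) and CD43-ckit- (-3.49, 3.53e-06, and -2.45, 7.57e-06). Rfxank, a subunit of the RFX complex, averaged 13.2 ± 0.586 CPM in CD43++ckit+ cells, 36.8 ± 4.41 CPM in CD43+ckit- cells and 36.1 ± 6.4 CPM in CD43-ckit- cells (SD, n = 3 each), and was lower than in both others (-1.47, adjusted p = 0.000406, and -1.45, 8.01e-05). Nfya, the DNA-binding subunit of NF-Y, was higher than in CD43-ckit- cells (0.87, adjusted p = 0.000262). PRC2, the complex that writes the repressive mark H3K27me3, is known to silence class I genes in some tumours. Of 4 PRC2 genes, 1 was higher and 1 lower in both comparisons (2 and 1, and 3 and 1, with library totals; medians 0.43 and 0.35). Its catalytic subunit Ezh2 was higher in CD43++ckit+ cells than in CD43-ckit- cells (1.11, adjusted p = 0.00107), and the alternative subunit Ezh1 was lower than in CD43+ckit- cells (-1.38, 0.00234) and CD43-ckit- (-1.82, 0.000217).

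Genes listed as class I turnover factors included several with lower levels in CD43++ckit+. Susd6, Tmem127 and Wwp2 are known from human cells to direct class I molecules to lysosomes. No such role is claimed here for Sppl3, the fourth gene listed. Its call against CD43-ckit- was lost under 4 of 19 alternatives and its sign turned under 1. Of the 4 turnover genes listed, 2 were lower in CD43++ckit+ cells than in CD43+ckit- cells and 4 than in CD43-ckit- cells. With library totals the latter became 1 higher, Sppl3 (0.54, adjusted p = 0.00348), and 2 lower. None was called higher by edgeR with TMM or by DESeq2, with 0 at an unadjusted p under 0.05. The medians of the 4 genes were -0.69 and -1.49. The shares of all genes called lower in these comparisons were 20.1% and 27.7%. Wwp2 was lower in CD43++ckit+ cells than in CD43+ckit- cells (log2 fold change -1.23, adjusted p = 0.000583) and CD43-ckit- (-2.01, 1.08e-05), Tmem127 was lower than in CD43+ckit- cells (-1.19, 0.000689) and Susd6 was lower than in CD43-ckit- cells (-2.04, 1.7e-05). Of the ligands of NK cells and immune checkpoints, 4 of 11 with a row were tested, of which 1 was lower in CD43++ckit+ cells than in CD43+ckit- cells and 2 than in CD43-ckit- cells (1 with library totals), with medians of -0.42 and -0.76. Cd47, the signal that restrains phagocytes, averaged 229.6 ± 11.2 CPM in CD43++ckit+ cells, 518.5 ± 37 CPM in CD43+ckit- cells and 713.1 ± 185 CPM in CD43-ckit- cells (SD, n = 3 each). It was lower in CD43++ckit+ cells than in both others (-1.18, adjusted p = 0.0012, and -1.64, 7.75e-05).

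**Figure D4:**
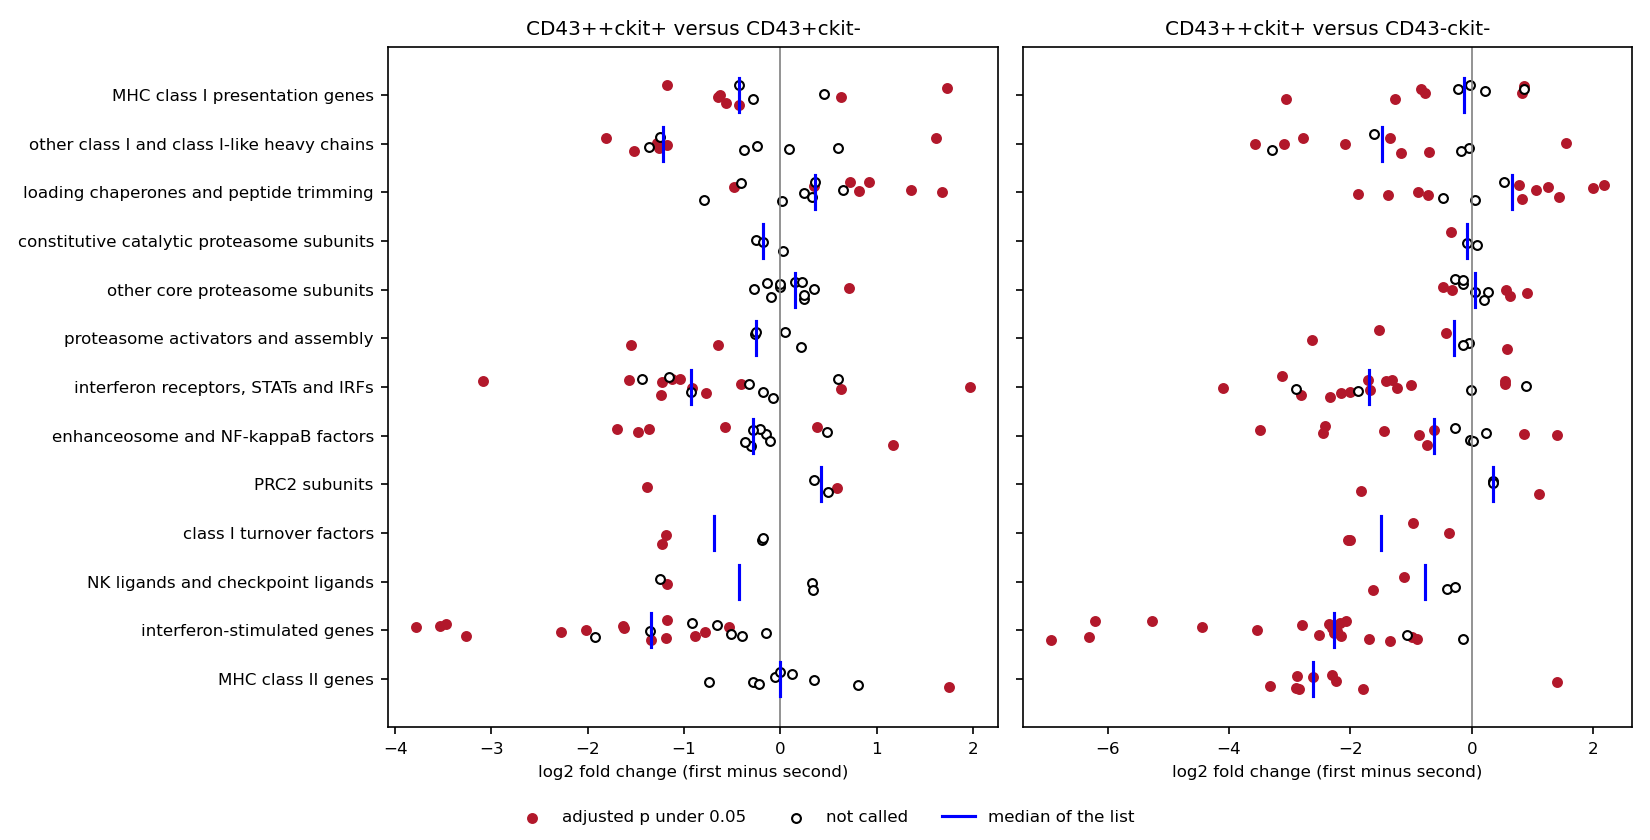
Log2 fold change (horizontal axis, first-named minus second-named population) of each tested gene of the members and of 12 related lists, with a blue bar at each list's median; filled points had an adjusted p under 0.05. Interferon-stimulated genes reach -6.94 against CD43-ckit-, beyond any of the 10 members.

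Markers of other cell types moved with the same comparisons. Their sums are given over all markers of a list, of which none was at 0 counts throughout a population. Erythroid markers (7 with a row) summed to 1543 to 2340 CPM in CD43++ckit+ cells, 13967 to 16418 CPM in CD43+ckit- cells and 29314 to 45806 CPM in CD43-ckit- cells. B cell markers (8) summed to 3.31 to 24.1 CPM, 14.4 to 45 CPM and 84.2 to 237 CPM, and monocyte and macrophage markers (10) to 18 to 105 CPM, 21.2 to 48.3 CPM and 174 to 186 CPM in the same order. T cell (8), NK cell (8) and dendritic cell (6) markers stayed under 118 CPM in every library, and the MHC class II genes (9) ranged from 11.7 to 70.5 CPM, 15.6 to 45.9 CPM and 162 to 222 CPM. Of the 9 class II genes 1 was higher and 8 lower in CD43++ckit+ cells than in CD43-ckit- cells (1 and 0 with library totals). Each of these sums had its highest value in a CD43-ckit- library, as did H2-K1 and H2-D1. Markers lower in CD43++ckit+ cells than in CD43-ckit- were 7 of 7 tested for erythroid cells, 8 of 8 for B cells, 4 of 8 for T cells, 4 of 7 for NK cells, 3 of 5 for dendritic cells, 2 of 10 for monocytes and macrophages and 2 of 4 for endothelial and stromal cells. Lower calls covered 27.7% of all genes in this comparison. These marker counts are with TMM scaling, on which the class II counts above depended. Neutrophil markers (10) summed to 95.5 to 6057 CPM in CD43++ckit+ cells, 487 to 3707 CPM in CD43+ckit- cells and 3840 to 17222 CPM in CD43-ckit- cells, and edgeR called none of the 10 in any comparison (1 at an unadjusted p under 0.05, and 4 called by DESeq2, both for CD43++ckit+ versus CD43-ckit-). With the neutrophil marker mean as a covariate H2-D1 kept its 3 calls (-1.21, -3.14 and -1.93). The part of the other cell types in the results was not tested.

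**Figure D5:**
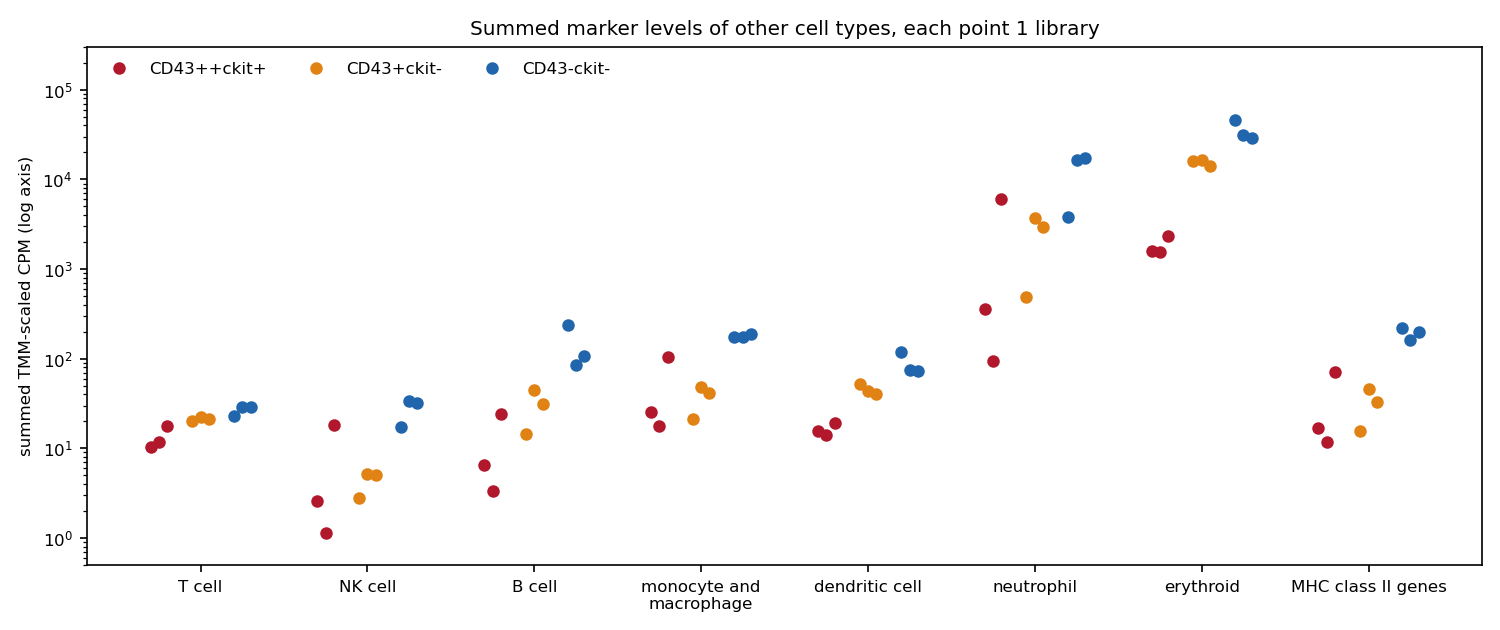
Summed TMM-scaled CPM of marker lists of other cell types and of MHC class II genes (vertical log axis); each point is 1 library, coloured by population. All lists reach their highest sums in CD43-ckit-, and the neutrophil sum of 1 CD43++ckit+ library (6057 CPM) stands above the other 2.

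Without the 3 libraries that correlated least with their population, the counts of called members were 10 for CD43++ckit+ versus CD43+ckit-, 9 for CD43++ckit+ versus CD43-ckit- and 6 for CD43+ckit- versus CD43-ckit-. Calls over all genes were also more numerous in that fit, at 8557, 10364 and 8881, against 5005, 8471 and 6523 with all libraries. H2-D1 then had log2 fold changes of -1.14, -2.92 and -1.78, and Psmb8 had 1.47, 0.60 and -0.87, all 6 called. Leaving out 1 library at a time gave 3 to 10 called members and 3493 to 5919 called genes in the first comparison. The low end came without CD43++ckit+ replicate 2 or CD43+ckit- replicate 1 (3 each), and 4 were called without CD43++ckit+ replicate 1 or CD43+ckit- replicate 3.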

How the data were processed

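RNA from 9 sorted bone marrow libraries was sequenced. The authors deposited 1 table of raw read counts per gene, whole numbers with no normalization. The submitters' processing notes name CASAVA 1.8, TopHat2 2.0.4, RSEM, HTSeq and edgeR with no roles, and a human build, GRCh38, although the symbols are those of mouse; the sources used here give neither the build used nor the strand handling. From the deposited counts, edgeR 4.0.16 (R 4.3.3) filtered genes (minimum count 10, minimum total 15), scaled by TMM and fitted 1 quasi-likelihood model to the 3 populations, with Benjamini-Hochberg adjustment over 12573 genes. Of 24391 rows, 6162 had no counts. No libraries were duplicates: chi-square per degree of freedom within populations was 15.2 to 117.5. Within-library ratios, with 1 added to each count, were tested by exact permutation over samples in Python 3.11.15 with scipy 1.17.1; the first 3 pairs were planned and the last 3 (H2-D1 to H2-K1, H2-K1 to B2m, Tap1 to Psmb9) were added after seeing the data. Scripts were tested on simulated data. Alternatives were DESeq2 1.42.0 and its size factors, library totals, other filters (none, or CPM over 1), a replicate block, the 2 populations alone, each library left out, the least correlated left out and a neutrophil covariate. Pairing was checked by correlating deviations of same-numbered libraries. CD43+ckit- with CD43-ckit- gave 0.525, 0.366 and 0.303, while CD43++ckit+ replicate 2 gave -0.617 with CD43+ckit- and -0.318 with CD43-ckit-. Between CD43+ckit- and CD43-ckit-, replicates 2 and 3 correlated about as much across numbers (0.343 and 0.349), so only replicate 1 was set apart. Pairing was thus not shown, and the main fit had no block. All 10 members were named, and up to 4 genes per related list, those with the smallest joint-test p whose average log2 CPM reached 1; some are given only in counts. The members and lists were chosen with earlier results of these data known. Transcript lengths and unique words come from GENCODE annotation and promoters from RefSeq.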

Additional observations from a re-analysis of the deposited data

How the results depend on the processing

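Of the called differences between populations, those of H2-D1 in all 3 comparisons, H2-K1 and Psmb10 for CD43++ckit+ versus CD43-ckit-, Psmb8 and Tapbp for CD43++ckit+ versus CD43+ckit-, and Nlrc5 for CD43+ckit- versus CD43-ckit- kept direction and call under the 19 alternatives computed for each. Leaving out 1 library at a time gave 3 to 10 called members for CD43++ckit+ versus CD43+ckit-, 6 to 7 for CD43++ckit+ versus CD43-ckit-, 2 to 4 for CD43+ckit- versus CD43-ckit-, 1 to 3 for the difference of the 2 steps and 8 to 9 for the joint test. For CD43+ckit- versus CD43-ckit- the count of 3 (1 higher, 2 lower) became 8 under library totals (7 higher, 1 lower), 6 in the DESeq2 test, 6 once the least correlated libraries were dropped and 5 with the neutrophil covariate, where 6523 of all genes became 8056, 6843, 8881 and 6578. For the difference of the 2 steps 3 became 5 both under library totals and once those libraries were dropped. The cause was not tested.

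Signs turned with library totals for CD43++ckit+ versus CD43-ckit- in Tap2 (0.68), B2m (0.17), Tapbp (0.092), Tap1 (0.88), H2-T10 (0.24), Psmb7 (0.58), Psma5 (0.44), Psme2 (0.49) and Sppl3 (0.54), and for CD43+ckit- versus CD43-ckit- in Tapbp (0.47), H2-K1 (0.035), B2m (0.46) and Psme2 (0.18). DESeq2 size factors and the DESeq2 test gave -0.0262 and -0.0256 for Nlrc5 in the first comparison, and in the second -0.15 for Tap2 and -0.0034 and -0.0035 for Psmb9. Tap2 there was -0.11 with the strict filter, -0.00999 with the 2 populations alone, -0.0126 with the replicate block on them and -0.0482 to 0.12 with 1 library left out, and Psmb9 -0.0175 to 0.38. Tap1 for CD43++ckit+ versus CD43-ckit- was 0.0869 with no filter, 0.27 with the neutrophil covariate and -0.19 to 0.0792 with 1 library left out.

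With the least correlated libraries left out, 2 libraries per population remained and the permutation test cannot go below p = 0.0667, so no ratio could pass: the differences for CD43++ckit+ versus CD43-ckit- were 0.56 (Psmb8 to Psmb5), 0.66 (Psmb9 to Psmb6), 0.96 (Psmb10 to Psmb7), -1.82 (H2-D1 to H2-K1), -0.50 (H2-K1 to B2m) and -0.82 (Tap1 to Psmb9). An exact permutation within replicate numbers (replicate block) gave p = 0.111 for Psmb9 to Psmb6 (0.94), 0.0833 for H2-K1 to B2m (-0.50) and 0.0556 for Tap1 to Psmb9 (-0.91). H2-K1 to B2m was -0.52 to -0.48 with 1 library left out, with an exact permutation p of 0.0679 without any 1 CD43-ckit- library. Over all genes, 8557 were called for CD43++ckit+ versus CD43+ckit- without the least correlated libraries, against 5005, and 6517 for the difference of the 2 steps, against 3576 (1965 to 4562 with 1 library left out). Of 1092 list counts under alternatives, 904 were within 1.5 times the reported count. The Nlrc5 call for CD43++ckit+ versus CD43+ckit- had an adjusted p of 0.0505 with the replicate block in edgeR, but those numbers do not show pairing. CD43-ckit- libraries were the shallowest, at 17966197 to 21609537 counts, and the lowest member count was 279.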
